A study of Mus musculus with 12 samples.

Results

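Genes of the cell cycle and of DNA replication were examined in the epididymal white adipose tissue (eWAT) of mice on 4 diets. The list held 40 genes, named by symbol from their known roles with earlier results of these data known, and 39 of them had values among the 23104 genes of the deposited table, while Gins2 was not analysed here. RNA of whole eWAT was sequenced from 3 male C57BL/6J mice per group, 12 libraries in all. Feeding lasted 16 weeks and ended at an age of 21 weeks. The groups were a normal diet (ND), a high-fat diet (HFD), the HFD holding 1.5% by weight of an ethanol extract of chrysanthemum leaves (CLE) and the HFD holding 0.003% by weight of luteolin (LU). Luteolin is a plant flavone. The CLE and LU mice thus also ate the HFD, and the HFD mice without supplement are their control. According to the methods, the sequenced mice were picked as representative of larger groups. The question of the design was how the HFD changed expression in eWAT and how far either supplement changed it in mice on the HFD.

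A cell that divides copies its DNA once and then separates the copies in mitosis. Before replication the MCM2-7 helicase is loaded on the origins, with the help of Cdc6, and in S phase Pcna, a ring that slides along DNA, holds the polymerases in place while enzymes such as Tk1, Tyms and Rrm2 supply the nucleotides. Entry into mitosis is driven by Cdk1 with its cyclins, the spindle checkpoint holds the chromosomes until all are attached, and the anaphase-promoting complex (APC/C) then ends mitosis by marking cyclin B for degradation. Mature adipocytes rarely divide, and in adipose tissue such transcripts are known from progenitors, endothelial cells and immune cells, including macrophages that divide in the tissue of obese animals. In whole tissue more cells of a type and more RNA per cell cannot be told apart.

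Many mitotic genes share short promoter elements. The CCAAT box is bound by the factor NF-Y, the cell cycle genes homology region (CHR) by the DREAM and MuvB complexes, and E2F sites by the E2F factors, which link S phase entry to the retinoblastoma protein. The window of 250 bases before to 50 after the RefSeq start (GRCm38.p6) was available for 34 of the 40 genes, as 37 promoters. The letters searched on both strands were CCAAT for the CCAAT box, TTTGAA for the CHR, and any of TTTGGCGC, TTTCCCGC, TTTCGCGC and TTTGCCGC for E2F. CCAAT stood in 86.5% of the 37 promoters against 37.4% of all 32851 promoters in the table, and TTTGAA in 54.1% against 17.9%. Both stood together in 54.1% against 6.95%. An E2F word stood in 18.9% against 2.26%. A match of letters is a description of the sequence and not a bound site.

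The promoters of 5 genes that rose in HFD and fell in CLE are shown, of which all but Cdc20 were also called lower in LU, as the 150 bases before the RefSeq start, written 5′ to 3′ on the strand of the gene. The first 4 show the letters in different arrangements and the fifth holds none of them. Capitals mark the words that were searched, on this strand or as their reverse complements, and none of the marked words overlap. The windows are chr7:135716380-135716529 (minus strand) for Mki67, chr11:99024190-99024339 (minus) for Top2a, chr10:69352913-69353062 (minus) for Cdk1, chr4:118437344-118437493 (minus) for Cdc20 and chr11:117849087-117849236 (plus) for Birc5.
Mki67: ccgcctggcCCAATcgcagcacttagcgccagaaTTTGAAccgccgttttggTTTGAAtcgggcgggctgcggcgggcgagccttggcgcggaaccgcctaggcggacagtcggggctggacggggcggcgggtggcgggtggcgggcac
Top2a: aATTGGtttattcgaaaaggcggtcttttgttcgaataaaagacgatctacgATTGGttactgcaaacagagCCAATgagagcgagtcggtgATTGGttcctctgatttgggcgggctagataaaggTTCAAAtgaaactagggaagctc
Cdk1: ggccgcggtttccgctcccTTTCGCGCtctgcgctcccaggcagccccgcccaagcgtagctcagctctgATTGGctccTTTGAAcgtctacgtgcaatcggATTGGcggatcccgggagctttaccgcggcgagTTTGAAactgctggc
Cdc20: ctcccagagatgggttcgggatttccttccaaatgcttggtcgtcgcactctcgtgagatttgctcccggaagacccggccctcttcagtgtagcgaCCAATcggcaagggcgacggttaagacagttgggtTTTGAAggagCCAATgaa
Birc5: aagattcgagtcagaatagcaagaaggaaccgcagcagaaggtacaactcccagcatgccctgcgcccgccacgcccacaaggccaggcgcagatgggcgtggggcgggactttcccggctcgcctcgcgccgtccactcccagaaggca
The Mki67 window held 2 copies of TTTGAA close together and 1 CCAAT. Top2a held 4 CCAAT words, 3 of them as the reverse complement, and 1 TTTGAA, also as the reverse complement. Cdk1 held 2 CCAAT words, 2 TTTGAA words and the E2F word TTTCGCGC. In Cdc20 a TTTGAA lay between 2 CCAAT words next to the start. No word was found in the Birc5 promoter, which says only that these letters are not in it.

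Values are FPKM, fragments scaled by transcript length and by the number of mapped fragments, with the transcripts of a gene summed. The means of the 39 genes over all libraries ranged from 0.525 to 40.4 FPKM with a median of 2.78, and 31 of them were under 5 FPKM, so most were weakly expressed in this tissue. Differences between groups were tested with limma on log2(FPKM + 1) over the 12802 genes with at least 1 FPKM in at least 3 libraries. To be called, a gene needed a change of more than 1.5-fold in FPKM + 1, together with a p under 0.05 after Benjamini-Hochberg adjustment. Adding 1 before the logarithm makes the differences of these weakly expressed genes smaller than their ratios of FPKM. Of the 39 genes, 36 were tested, and Cdc6, Ttk and Cenpf were too low. Bub1 and Cenpe reached 1 FPKM only in HFD libraries and so were tested only through the group in which they were high. The read depth behind each value is unknown, because FPKM hold no counts. With 3 against 3 mice, an exact permutation test of a single gene cannot give a two-sided p under 0.1.

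The HFD mice had more RNA of nearly all of these genes than the ND mice. Of the 36 genes tested, 33 rose and none fell, with 14.9% of all tested genes called higher in this comparison. Without Bub1 and Cenpe the count was 31 of 34. The median difference of the 36 was 1.18 on the log2(FPKM + 1) scale, against -0.0189 over all genes tested. Without the filter, every HFD library lay above every ND library in 37 of the 39 genes, against 30.2% of tested genes. Mcm7 was the reverse, with every HFD library below every ND library, as in 29.3% of tested genes, and Cdc6 overlapped. All 36 had an unadjusted p under 0.05, against 56.6% of tested genes. The ratio of the mean FPKM in HFD to that in ND ran from 0.774 for Mcm7 to 4.84 for Mki67.

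**Figure D1:**
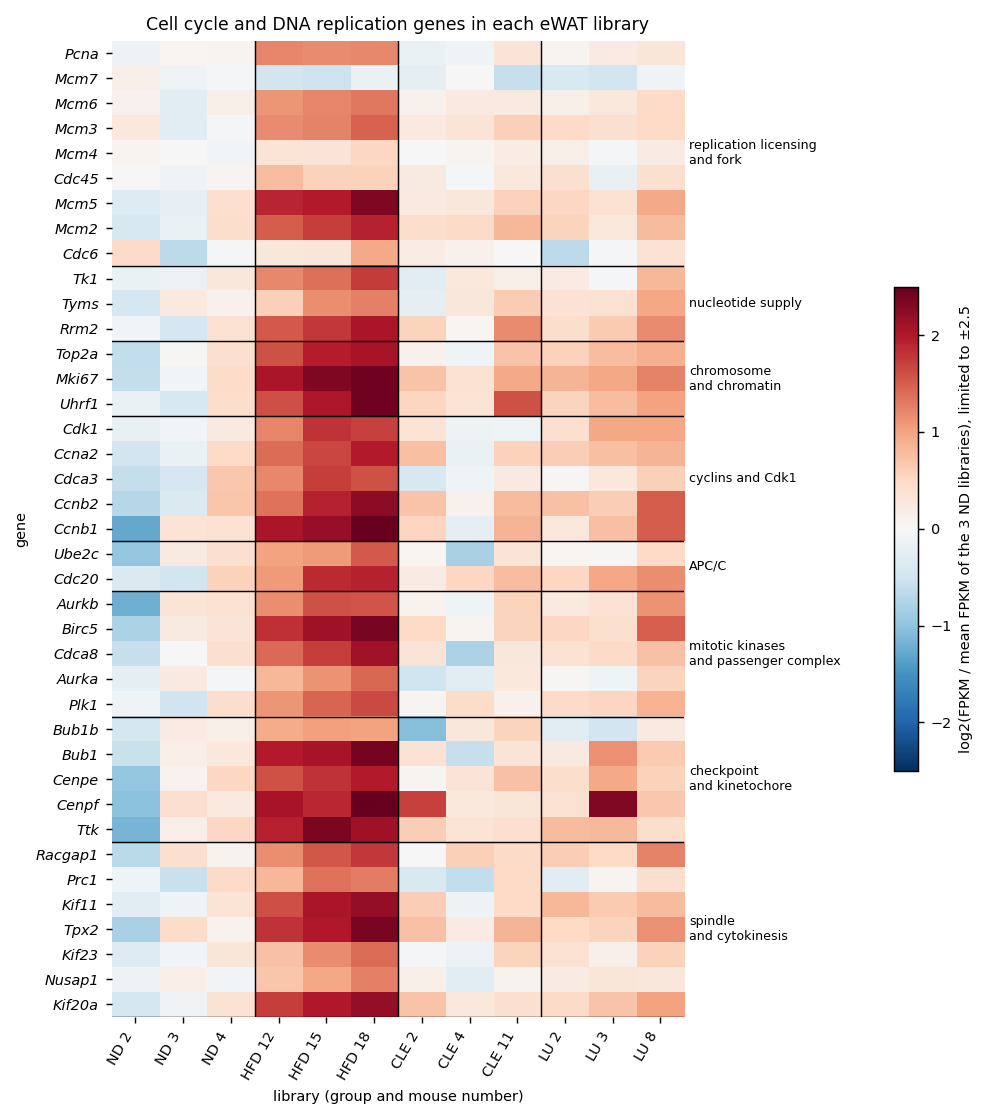
Each cell of the heat map is the log2 ratio of a gene's FPKM in 1 library to its mean in the 3 ND libraries, with the 39 genes as rows, ordered by role and mean level, and the 12 libraries as columns. The 3 HFD columns are red in all rows except Mcm7, which is blue there, and the medians over the rows are 2.32 to 3.43 times the ND mean in HFD, 1.05 to 1.40 in CLE and 1.31 to 1.71 in LU.

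Both supplements went with lower levels. In the CLE mice, 33 of the 36 genes fell compared with the HFD mice (10.2% of tested genes were called lower), with a median difference of -0.94 against 0.00515 over all genes. Every CLE library lay below every HFD library in 37 of the 39 genes, against 26.2% of tested genes, and Tyms and Mcm7 overlapped. An unadjusted p under 0.05 was found for 35 of the 36, against 43.9%. In the LU mice 24 of the 36 fell (7.67% of tested genes) and none rose (4.77%), the median difference was -0.80 against 0.0321, and every LU library lay below every HFD library in 32 of 39 genes against 22.1%. Without Bub1 and Cenpe, which were tested only through their HFD values, 31 of 34 fell in CLE and 23 of 34 fell in LU. The 3 comparisons share the HFD libraries, so a high or low HFD library moves all of them.

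**Figure D2:**
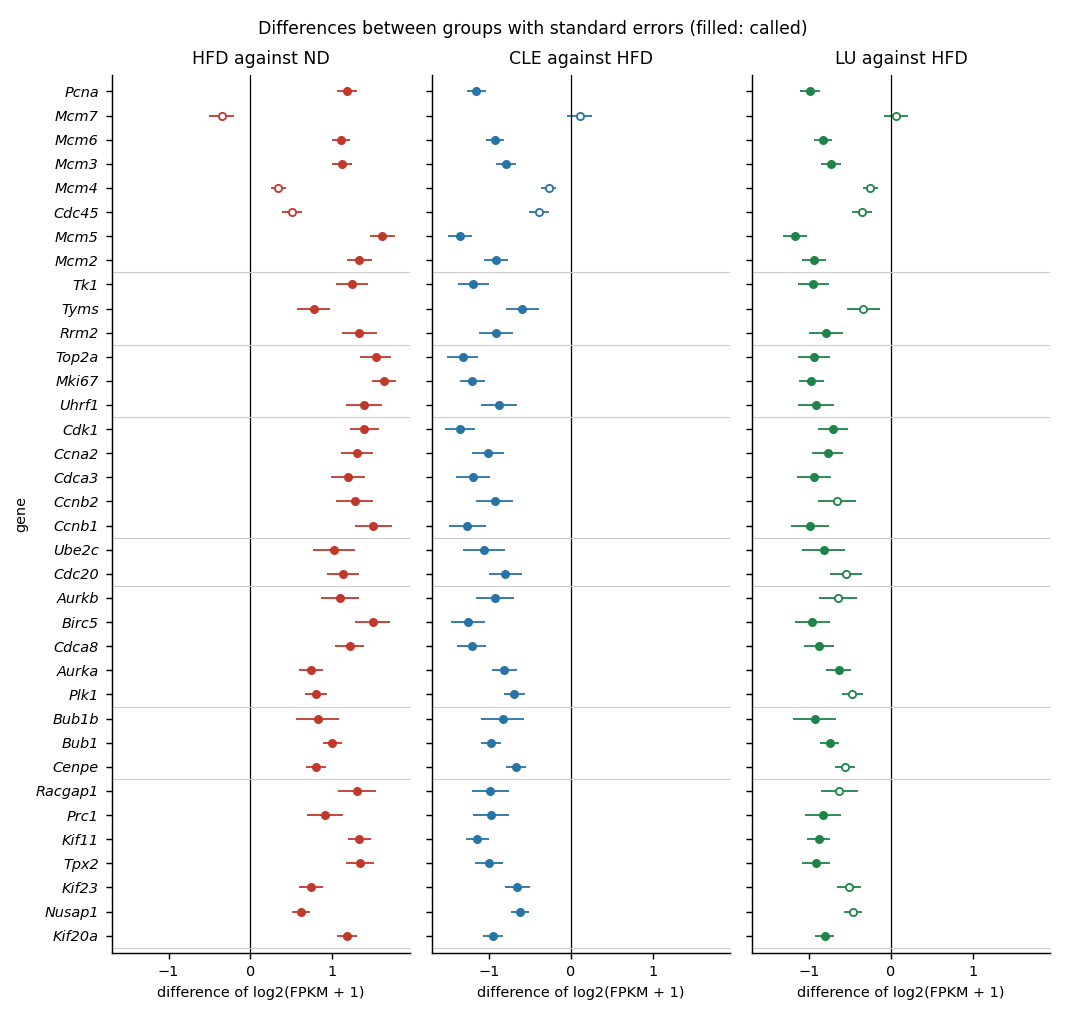
Points are differences of log2(FPKM + 1) between group means for the 36 genes tested, with bars of 1 standard error from limma (n = 3 mice per group), in 3 panels for HFD against ND, CLE against HFD and LU against HFD, and filled points are called genes. All points but Mcm7 lie right of 0 in the first panel and left of 0 in the other 2 panels, with 3 open points in the first panel, 3 in the second and 12 in the third.

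Mki67, the source of the Ki-67 protein that marks cycling cells, and Top2a, the topoisomerase that untangles replicated chromosomes, were among the genes with the largest differences. Mki67 (chr7:135689784-135716361, minus strand, GRCm38) was at 0.769, 1.12 and 1.61 FPKM in the ND mice, 4.80, 5.88 and 6.29 in the HFD mice, 1.92, 1.52 and 2.25 in the CLE mice and 2.10, 2.30 and 2.77 in the LU mice. The HFD mice stood apart from the other 9, and the LU mice all lay above the ND mice. The difference was 1.63 ± 0.15 (SE) for HFD against ND (adjusted p = 6.9e-06), -1.20 ± 0.15 for CLE against HFD (adjusted p = 0.00015) and -0.97 ± 0.15 for LU against HFD (adjusted p = 0.00098). Top2a was at 1.43, 2.22 and 2.91 FPKM in ND, 6.62, 8.48 and 9.14 in HFD, 2.35, 2.03 and 3.59 in CLE and 3.27, 3.76 and 4.07 in LU. Again no other library reached the lowest HFD library. The third gene of this chromatin group, Uhrf1, helps to carry DNA methylation over to the new strand. It rose by 1.39 ± 0.22 in HFD and fell by 0.87 ± 0.22 in CLE and by 0.92 ± 0.22 in LU.

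**Figure D3:**
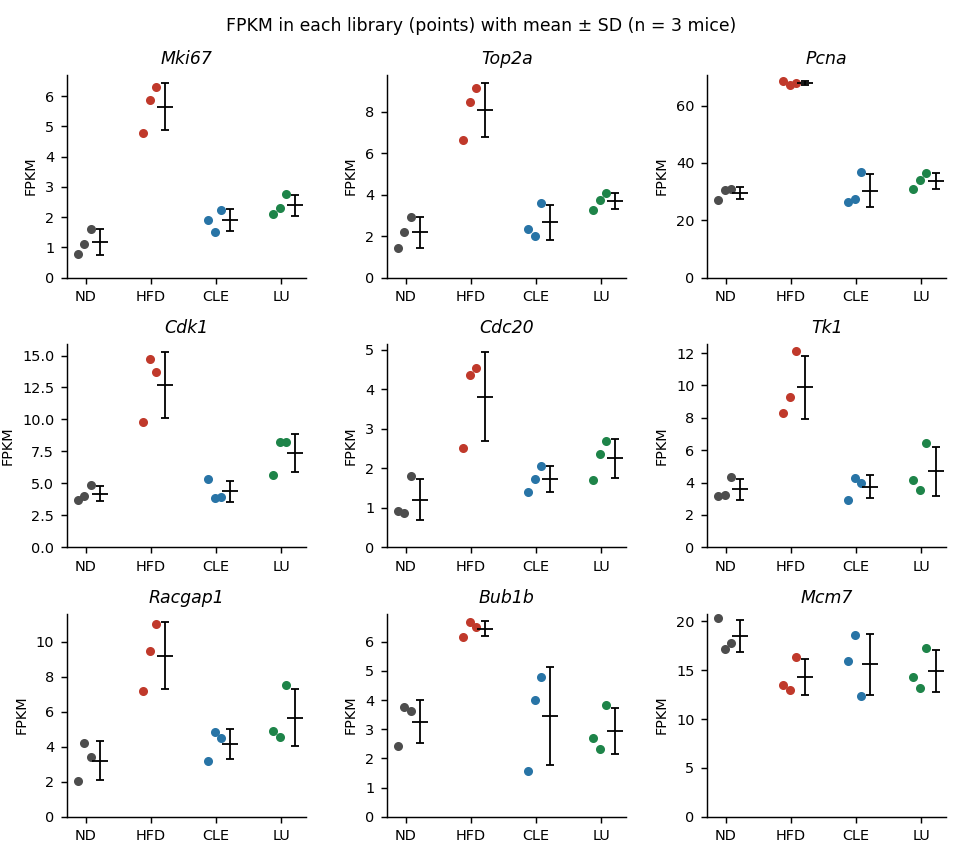
Points show the FPKM of 9 genes in each library by group, and the black marks show the mean ± SD of 3 mice. The HFD mean is the highest in 8 of the 9 panels, with overlap between HFD and LU points for Cdc20 and Racgap1, and in the Mcm7 panel the ND mean is the highest.

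Of the 10 listed genes of replication licensing and the fork, 8 were tested, 5 rose in HFD and the same 5 (Pcna, Mcm2, Mcm3, Mcm5 and Mcm6) fell in CLE and in LU. Pcna was by far the most abundant gene of the list. It was at 27.1, 30.6 and 30.9 FPKM in ND, 68.6, 67.0 and 67.8 in HFD, 26.4, 27.5 and 36.9 in CLE and 30.9, 34.0 and 36.5 in LU. The HFD mice lay close together (67.8 ± 0.767 FPKM, mean ± SD, n = 3) at 2.30 times the ND mean. Pcna rose by 1.18 ± 0.12 in HFD (adjusted p = 1.3e-05) and fell by 1.15 ± 0.12 in CLE (adjusted p = 4.9e-05) and by 0.99 ± 0.12 in LU (adjusted p = 0.00026). Cdc45, the helicase partner recruited when origins fire, had a difference of 0.51 ± 0.12 for HFD against ND (adjusted p = 0.0045), below the fold needed for a call, and -0.39 ± 0.12 in CLE.

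The 6 subunits of the MCM2-7 ring, which act as 1 complex, did not move alike at the RNA level. Mcm5 had the largest difference, with 1.35, 1.48 and 2.26 FPKM in ND, 6.33, 6.74 and 8.54 in HFD, 2.0, 2.06 and 2.53 in CLE and 2.45, 2.22 and 3.26 in LU, and rose by 1.61 ± 0.15 in HFD. Mcm2, Mcm3 and Mcm6 rose by 1.33 ± 0.15, 1.12 ± 0.12 and 1.10 ± 0.11. Mcm4 differed by 0.34 ± 0.09 (adjusted p = 0.0075), with every HFD library (5.82 to 6.71 FPKM) above every ND library (4.42 to 4.88) but a fold under 1.5. Mcm7 was at 20.4, 17.2 and 17.8 FPKM in ND and at 13.5, 13.0 and 16.4 in HFD, a difference of -0.35 ± 0.15 that did not pass the test (adjusted p = 0.068). In CLE it was at 15.9, 18.6 and 12.4 and in LU at 14.3, 13.2 and 17.3 FPKM, both spread over the ND and HFD values. These subunits were singled out after their values were seen.

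**Figure D4:**
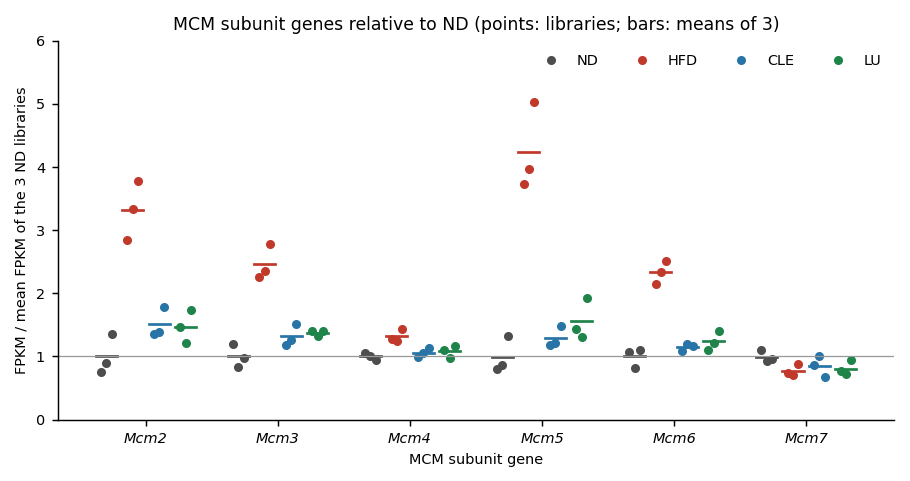
Points are the FPKM of each MCM subunit gene in 1 library divided by the mean of the 3 ND libraries, and bars are the means of 3 libraries. The HFD means lie at 3.31 for Mcm2 and 4.25 for Mcm5, and at 0.774 for Mcm7.

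The Mcm7 sum was made of transcripts that went different ways. The largest share, 39.6%, belonged to a transcript that the authors assembled as a variant of the annotated one, at 7.13 to 8.25 FPKM in ND and 5.15 to 5.82 in HFD. The annotated transcript ENSMUST00000000505 held 12.7% and was at 1.83, 1.92 and 1.48 FPKM in ND, 2.27, 2.34 and 4.42 in HFD, 1.06, 1.33 and 1.99 in CLE and 1.94, 1.46 and 2.07 in LU. For this transcript alone every HFD library lay above all the others. The split of reads between overlapping transcripts is an estimate by the authors' software, and this transcript was singled out after its values were seen. For Mcm6 the way of summing mattered more. Its reads share an assembled locus with the neighbouring gene Dars, a tRNA synthetase, and by the gene name in the table Mcm6 was at 40.9 to 42.5 FPKM in ND and 49.1 to 51.4 in HFD. By Ensembl transcript, as used here, it was at 4.97 to 6.72 FPKM in ND and 13.0 to 15.2 in HFD. Summed by name, its differences were 0.26 ± 0.07 for HFD against ND, -0.25 ± 0.07 for CLE against HFD and -0.20 ± 0.07 for LU against HFD, all under the fold for a call.

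All 3 genes of nucleotide supply rose in HFD. Tk1, the thymidine kinase of S phase, was at 3.18, 3.24 and 4.35 FPKM in ND, 8.31, 9.27 and 12.1 in HFD, 2.94, 4.31 and 4.00 in CLE and 4.13, 3.53 and 6.42 in LU. It rose by 1.24 ± 0.19 and fell by 1.19 ± 0.19 in CLE and by 0.95 ± 0.19 in LU. Rrm2, the small subunit of ribonucleotide reductase, rose by 1.33 ± 0.21 and fell by 0.91 ± 0.21 and by 0.79 ± 0.21. Tyms, which makes thymidylate, was at 1.61, 2.59 and 2.35 FPKM in ND and 3.29, 4.87 and 5.24 in HFD, and its CLE (1.86, 2.67 and 3.38) and LU (2.83, 2.86 and 4.27) values reached into the HFD range. It rose in HFD (0.77 ± 0.20) and fell in CLE (-0.59 ± 0.20, adjusted p = 0.039), and LU against HFD gave -0.34 ± 0.20 (adjusted p = 0.23). Only 11.7% of the Tyms value belonged to transcripts of the protein-coding type, against 60.9% for Tk1 and 97.0% for Rrm2. The largest share of Tyms, 69.1%, belonged to a transcript assembled as a variant of an annotated one. It was given the type of that annotated transcript, so whether it codes for protein is not known.

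The 5 genes of the group with Cdk1 and its cyclins all rose in HFD and all fell in CLE. Cdk1, the kinase that starts mitosis, was at 3.71, 4.00 and 4.90 FPKM in ND, 9.77, 14.7 and 13.7 in HFD, 5.32, 3.87 and 3.92 in CLE and 5.65, 8.21 and 8.26 in LU. In this sum of all transcripts, the LU mice lay between the HFD mice and the mice of the other 2 groups without overlap. Cdk1 rose by 1.39 ± 0.18 in HFD (adjusted p = 6.4e-05) and fell by 1.35 ± 0.18 in CLE (adjusted p = 0.00019) and by 0.71 ± 0.18 in LU (adjusted p = 0.012). Only 41.6% of its value came from protein-coding transcripts. For these alone the differences were 1.20, -0.92 and -0.63, each called. CLE and LU overlapped in the largest of them, ENSMUST00000119827 (1.15 to 1.38 and 1.14 to 1.74 FPKM). In ENSMUST00000152448, also protein-coding, every LU library (1.05 to 1.08) was above every CLE library (at most 1.04). A transcript of the retained intron type, ENSMUST00000123458, was at 0.383, 0.909 and 5.29e-09 FPKM in CLE and 1.45, 2.34 and 1.95 in LU. Ccna2, cyclin A2 of S phase and early mitosis, was at 1.35, 1.64 and 2.58 FPKM in ND, 4.88, 5.87 and 7.28 in HFD, 3.13, 1.64 and 2.76 in CLE and 2.82, 3.12 and 3.32 in LU. Ccnb1, 1 of the 2 B cyclins of mitosis in the list, had the largest rise of the group with 1.50 ± 0.23, and Cdca3, an activator of mitotic entry, rose by 1.19 ± 0.21. Ccnb2, the other B cyclin, rose by 1.27 ± 0.23 and fell by 0.93 ± 0.23 in CLE, and LU against HFD gave -0.66 ± 0.23 (adjusted p = 0.057).

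The APC/C group held its activator Cdc20 and its ubiquitin-conjugating enzyme Ube2c. Ube2c was at 1.38, 3.16 and 3.60 FPKM in ND, 5.47, 5.70 and 7.85 in HFD, 2.79, 1.55 and 3.41 in CLE and 2.80, 2.75 and 3.85 in LU. The spread among the ND mice was wide and yet stayed below the HFD values. It rose by 1.02 ± 0.26 and fell by 1.06 ± 0.26 in CLE and by 0.82 ± 0.26 in LU (adjusted p = 0.034). Cdc20 was at 0.928, 0.864 and 1.80 FPKM in ND, 2.52, 4.37 and 4.54 in HFD, 1.39, 1.72 and 2.06 in CLE and 1.71, 2.36 and 2.69 in LU, where the highest LU library passed the lowest HFD library. It rose by 1.13 ± 0.20 and fell by 0.80 ± 0.20 in CLE, and LU against HFD gave -0.55 ± 0.20 (adjusted p = 0.066).

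All 5 mitotic kinases and members of the chromosomal passenger complex rose in HFD and fell in CLE. Aurkb, the kinase of the passenger complex, was at 0.662, 1.95 and 2.02 FPKM in ND, 3.49, 4.66 and 4.64 in HFD, 1.64, 1.44 and 2.28 in CLE and 1.84, 1.99 and 3.36 in LU. Birc5, or survivin, which holds that complex at the centromere, was at 0.660, 1.33 and 1.43 FPKM in ND, 4.04, 4.93 and 5.93 in HFD, 1.62, 1.19 and 1.68 in CLE and 1.64, 1.51 and 3.21 in LU. For both genes LU mouse 8 was the highest library outside the HFD group. Birc5 rose by 1.49 ± 0.21 and fell by 1.25 ± 0.21 in CLE and by 0.96 ± 0.21 in LU. Cdca8, or borealin of the same complex, rose by 1.21 ± 0.18, and Aurka, a kinase of the spindle poles, rose by 0.74 ± 0.15, and both fell in CLE and in LU. Plk1, a kinase of mitotic entry and cytokinesis, rose by 0.80 ± 0.13 and fell by 0.69 ± 0.13 in CLE. LU against HFD gave -0.47 ± 0.13 for Plk1 (adjusted p = 0.017), under the fold for a call, and -0.65 ± 0.23 for Aurkb (adjusted p = 0.058).

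Of the 5 genes of the spindle checkpoint and kinetochore, 3 could be tested and all 3 were called higher in HFD, but Bub1 and Cenpe were tested only because of their HFD values, which leaves Bub1b. Bub1b, the checkpoint protein BubR1, was at 2.41, 3.76 and 3.62 FPKM in ND, 6.17, 6.68 and 6.52 in HFD, 1.56, 3.99 and 4.80 in CLE and 2.69, 2.33 and 3.84 in LU. The HFD mice were close together here and the CLE mice far apart. It rose by 0.82 ± 0.26 (adjusted p = 0.020) and fell by 0.83 ± 0.26 in CLE (adjusted p = 0.029) and by 0.93 ± 0.26 in LU (adjusted p = 0.021). Each of these 3 calls of Bub1b was lost in at least 1 of the 12 fits that left out a library. Bub1, a checkpoint kinase, was at 0.277, 0.459 and 0.492 FPKM in ND, 1.61, 1.71 and 2.14 in HFD, 0.526, 0.275 and 0.508 in CLE and 0.477, 0.907 and 0.642 in LU. Cenpe, a kinetochore motor, was at 0.215 to 0.604 FPKM in ND and 1.27 to 1.67 in HFD. For LU against HFD it differed by -0.56 ± 0.12 (adjusted p = 0.0046), just short of 1.5-fold in FPKM + 1. Its mean FPKM in LU was 0.457 times that in HFD.

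The 3 genes that were not tested had low values throughout. Ttk, the checkpoint kinase Mps1, was at 0.112, 0.281 and 0.355 FPKM in ND and 0.959, 1.28 and 1.08 in HFD, and the CLE (0.315 to 0.383) and LU (0.337 to 0.436) mice lay below the HFD mice. Cenpf, a kinetochore protein, was at 0.109 to 0.297 FPKM in ND and 0.819 to 1.43 in HFD, but at 1.11 in LU mouse 3. Cdc6 was at 1.03, 0.470 and 0.714 FPKM in ND and 0.897, 0.906 and 1.42 in HFD, so that the groups overlapped. When all genes were tested without a filter, Ttk was called in all 3 comparisons (0.76, -0.65 and -0.59), Cenpf only for HFD against ND (0.74, adjusted p = 0.017) and Cdc6 in none.

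All 7 genes of the spindle and of cytokinesis rose in HFD and fell in CLE. Racgap1, the GTPase-activating subunit of the complex at the spindle midzone, was at 2.02, 4.21 and 3.40 FPKM in ND, 7.17, 9.45 and 11 in HFD, 3.2, 4.83 and 4.49 in CLE and 4.90, 4.54 and 7.54 in LU. It rose by 1.30 ± 0.23 and fell by 0.98 ± 0.23 in CLE, and LU against HFD gave -0.63 ± 0.23 (adjusted p = 0.062). LU mouse 8 lay above the lowest HFD mouse. Prc1, which bundles the midzone microtubules, was at 2.05, 1.51 and 3.07 FPKM in ND, 3.91, 5.64 and 5.35 in HFD, 1.69, 1.45 and 3.13 in CLE and 1.82, 2.33 and 2.90 in LU, and fell in both. Kif11, the motor that pushes the spindle poles apart, rose by 1.33 ± 0.14, Tpx2, a spindle assembly factor, by 1.34 ± 0.17 and Kif20a, a motor of cytokinesis, by 1.18 ± 0.12, and all 3 fell in CLE and LU. Kif23, the motor partner of Racgap1, rose by 0.74 ± 0.15, and Nusap1, a microtubule binder, rose by 0.62 ± 0.11. Both fell in CLE, while LU against HFD gave -0.51 ± 0.15 and -0.46 ± 0.11, with adjusted p of 0.028 and 0.0090 but folds of FPKM + 1 under 1.5. Their mean FPKM in LU was 0.593 and 0.606 times that in HFD.

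Of the 36 genes, 24 rose in HFD and fell with both supplements, a pattern found in 7.28% of all tested genes, and because the HFD libraries enter all 3 comparisons a rise and a fall are not independent. Another 9 (Aurkb, Ccnb2, Cdc20, Cenpe, Kif23, Nusap1, Plk1, Racgap1 and Tyms) rose in HFD and were called lower in CLE but not in LU, against 2.45% of tested genes. Genes of mitosis made up 8 of these 9 and 22 of the 36 tested. Bub1, among the 24, and Cenpe, among the 9, were tested only through their HFD values. Cdc45, Mcm4 and Mcm7 were called in none, and no gene was called lower in LU alone. The split depended on the transcripts used. With protein-coding transcripts only, Aurkb (-0.68, adjusted p = 0.015) and Racgap1 (-0.63, adjusted p = 0.036) were also called lower in LU. With the highest transcript only, Aurkb, Cenpe, Plk1 and Tyms were called lower in LU. There Cdk1 lost its call in LU (adjusted p = 0.068) and Nusap1 its call in CLE (adjusted p = 0.054). This split does not show that the supplements differ. In the direct comparison of CLE with LU, limma called none of the 36 genes (0.00781% of tested genes were called lower), with a smallest adjusted p of 0.90, and 1 of them (Cdk1) had an unadjusted p under 0.05, against 5.20% of all tested genes. The difference was negative in 32 of the 36, with a median of -0.20 against -0.0284 over all genes. The largest was Cdk1 with -0.63 (95% interval -1.02 to -0.25), in a sum of which 41.6% came from protein-coding transcripts. Every CLE library lay below every LU library in 5 genes (Cdk1, Cdca8, Kif11, Nusap1 and Plk1), against 6.30% of tested genes. For the 9 genes above the intervals of the difference all included 0, for example -0.70 to 0.19 for Cdc20 and -0.85 to 0.15 for Racgap1. Differences of that size between the supplements lie within the intervals.

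Against the ND mice, the CLE mice overlapped in all 39 genes, while every CLE library lay above ND in 13.2% and below it in 11.5% of tested genes. None was called, the median difference was 0.18 against 0.00549 over all genes, and 4 genes had an unadjusted p under 0.05 in limma against 23.3% of tested genes, of which 2.11% were called higher. The LU mice lay above every ND mouse in 16 of the 39 genes, against 18.5% of tested genes. Of the 36, Mki67 (0.66 ± 0.15, adjusted p = 0.017) and Cdk1 (0.68 ± 0.18, adjusted p = 0.028) were called higher, against 4.98% of tested genes, so this share was near the background. None was called lower, against 1.59%. Without ND mouse 2 or without LU mouse 8 neither was called, and without ND mouse 4 the count was 6.

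Within a group the genes tended to be high or low in the same mice. Among the HFD mice, mouse 12 had the lowest value in 34 of the 39 genes and mouse 18 the highest in 31, whereas over all tested genes mouse 12 was lowest in 36.3% and mouse 18 highest in 36.5%. LU mouse 8 had the highest LU value in 33 of 39 genes, against 37.5% of tested genes. ND mouse 4 was highest in 28 and ND mouse 2 lowest in 28, against 30.7% and 34.1%. Among the CLE mice, mouse 11 was highest in 24 and mouse 4 lowest in 22, against 40.7% and 26.2%. The 39 genes were thus not 39 separate readings of a group, and a single mouse could move many calls. Leaving out HFD mouse 18 lowered the count of genes that fell from 33 to 28 for CLE and from 24 to 18 for LU. A letter R of unknown meaning stands in the labels of 4 libraries, CLE mouse 4, LU mouse 2 and the ND mice 3 and 4, and in no HFD label. The column names of the same 4 libraries share a suffix that no other library used has. Without these 4 libraries, 28 of the calls in CLE and 19 of those in LU were also made. For HFD against ND only ND mouse 2 is then left, the ND mouse with the lowest values in 28 genes, so no count is given.

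Other genes of the cell cycle were described from lists of neighbouring steps. Their counts stand against 14.9% of all tested genes called higher and 10.8% called lower in HFD, and 10.2% called lower in CLE and 7.67% in LU. Of 11 genes of condensin and the outer kinetochore, 9 rose in HFD, 8 fell in CLE and 4 fell in LU. Smc4, the most abundant and a subunit of condensin, differed by 0.39 ± 0.10 without reaching the fold. Ncapd2, another subunit, differed by 0.33 ± 0.17 (adjusted p = 0.13), and Cenpa, the histone of the centromere, rose by 1.11 ± 0.15 from 3.55 to 5.58 FPKM in ND to 9.86 to 12.8 in HFD. Of 26 tested genes of origins, polymerases and lagging-strand synthesis, 7 rose, 1 fell and 18 were not called in HFD, and 8 fell in CLE and 4 in LU. The 3 most abundant of these, Orc4 (-0.12 ± 0.10) and Orc3 (-0.09 ± 0.10) of the origin recognition complex and Rpa1 (0.02 ± 0.08), which coats single-stranded DNA, gave values near 0 for HFD against ND. The 7 that rose included Fen1 (1.32 ± 0.11), the flap nuclease, and Gmnn (1.32 ± 0.19), the inhibitor of licensing, and Orc6 fell by 0.64 ± 0.12, all 3 named after their values were seen.

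Upstream of S phase the picture was mixed. Of 8 G1 cyclins and kinases, 3 rose in HFD. Ccnd3, the most abundant, had a difference of -0.27 ± 0.13 (adjusted p = 0.094) and Cdk4 one of 0.26 ± 0.10 (adjusted p = 0.045), neither called. Ccnd2, cyclin D2, was at 33.6, 44.5 and 39 FPKM in ND, 77.8, 85.9 and 92.3 in HFD, 52.0, 41.9 and 57.0 in CLE and 51.7, 47.7 and 59.5 in LU. It rose by 1.11 ± 0.14 and fell by 0.76 ± 0.14 in CLE and by 0.68 ± 0.14 in LU. Of 14 tested genes of the E2F, RB and mitotic transcription factor list, 3 rose, and 1 (Foxm1, a factor of mitotic genes) fell in CLE and in LU, counts near the shares over all tested genes. The most abundant of them, the pocket proteins Rb1 (-0.19 ± 0.10) and Rbl2 (0.08 ± 0.09) and the factor E2f4 (-0.01 ± 0.09), were not called. Foxm1, named after its values were seen, was at 1.50 to 1.84 FPKM in ND, 3.8 to 6.34 in HFD, 2.26 to 2.80 in CLE and 2.29 to 2.95 in LU.

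Of the CDK inhibitors, which brake the cycle, 6 were tested, and none was called higher and 1 lower in HFD, too few to set apart from the 14.9% and 10.8% of all tested genes. Cdkn1c (p57) fell by 1.09 ± 0.24 (adjusted p = 0.0028), with 25.4, 10.9 and 19.4 FPKM in ND and 9.55, 6.88 and 7.06 in HFD, and rose by 0.87 ± 0.24 in CLE to 13.7, 16.2 and 15.1 FPKM. In LU it was at 10.4, 13.9 and 11.4 FPKM (0.55 ± 0.24 against HFD, adjusted p = 0.11). Cdkn1b (p27) differed by -0.42 ± 0.10 (adjusted p = 0.0035), under the fold for a call. Cdkn1a (p21), a target of p53, had a wide spread with 25.9 to 57.0 FPKM in ND and 45.4 to 60.3 in HFD, and differed by 0.54 ± 0.31 (adjusted p = 0.17). Cdkn2b was higher in HFD by 0.46 ± 0.15, with an adjusted p under 0.05 but under the fold for a call. Cdkn2c (-0.11 ± 0.20) and Cdkn2d (0.09 ± 0.13) were not called, and Cdkn2a was too low to be tested.

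Markers of cell types moved with the same groups. Each list is given by the median over its genes of FPKM relative to the ND mean, lowest to highest library. For the 39 cell cycle genes this median was 0.761 to 1.26 in ND, 2.32 to 3.43 in HFD, 1.05 to 1.40 in CLE and 1.31 to 1.71 in LU. For 10 macrophage markers it was 0.828 to 1.19 in ND, 12.2 to 14.2 in HFD, 1.77 to 3.16 in CLE and 2.93 to 4.06 in LU, and all 10 rose in HFD and fell with both supplements. Their summed level went from 330 to 498 FPKM in ND to 2910 to 3380 in HFD. Within the HFD group the order of the mice was not the same for both, since mouse 12 had the lowest median of the cell cycle genes and the highest of the macrophage markers. Adipocyte markers went the other way, with 0.540 to 0.624 in HFD, and 6 of 7 fell in HFD, all except Lep. Of the endothelial markers, 1 of 6 fell in HFD, against 10.8% of tested genes, with a median of 0.588 to 0.902, and 3 of 6 were called higher in CLE and 4 of 6 in LU than in HFD, against 6.33% and 4.77%. Among 6 progenitor markers 1 fell in HFD, against 10.8% of tested genes. Their median was 0.875 to 1.16 in ND, 1.13 to 1.33 in HFD, 0.688 to 1.08 in CLE and 0.774 to 1.14 in LU. Their summed level was 754 to 938 FPKM in ND and 642 to 770 in HFD. The part of any cell type in the differences of the cell cycle genes was not tested.

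**Figure D5:**
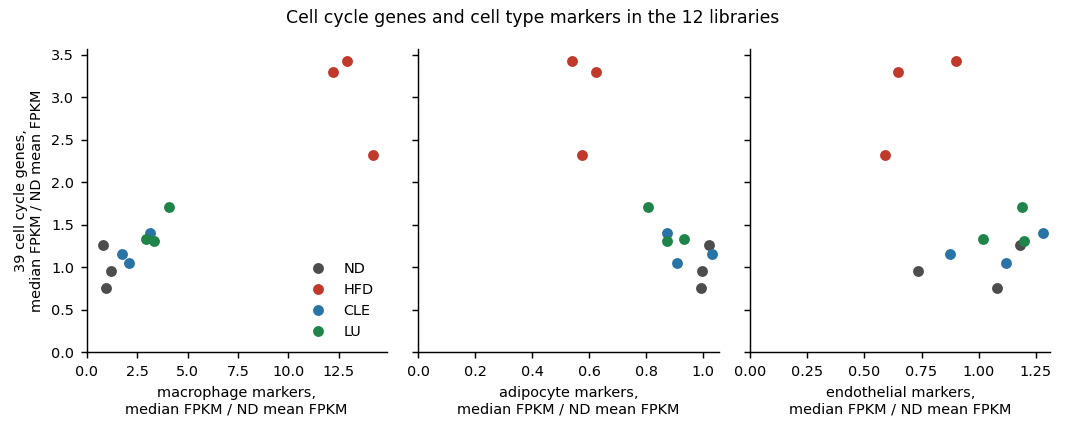
Each point is 1 of the 12 libraries, with the median over the 39 cell cycle genes of FPKM relative to the ND mean on the vertical axis and the same median for 10 macrophage, 7 adipocyte or 6 endothelial markers on the horizontal axes. The 3 HFD libraries lie apart from the other 9, at 12.2 to 14.2 for macrophage and at 0.540 to 0.624 for adipocyte markers.

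Lymphocyte markers were low. The 8 T cell markers summed to 5.52 to 7.16 FPKM in ND, 7.16 to 11.5 in HFD, 6.2 to 10.1 in CLE and 6.66 to 16.3 in LU. The highest of these sums was in LU mouse 3. Of 3 T cell markers tested, 1 was called higher in HFD, against 14.9% of tested genes. The 7 B cell markers summed to 3.19 to 7.63 FPKM in ND, 1.69 to 2.55 in HFD, 1.42 to 3.15 in CLE and 1.97 to 4.05 in LU. Testis contains many dividing cells and lies beside this fat pad. The 10 male germ cell markers summed to 13.9 to 19.7 FPKM in ND and 35.6 to 49.8 in HFD, and Sycp3 alone was at 13.0 to 16.0 and 35.3 to 49.6, while the defining spermatid genes Prm1, Prm2, Tnp1 and Tnp2 each had a mean of at most 0.474 FPKM in every group. Sycp3, a meiotic gene, rose by 1.42 on the log2(FPKM + 1) scale in HFD, and its part in the result was not tested. The epididymis markers summed to at most 5.75 FPKM, and Lcn5 was listed at 0 in all libraries. Adipocyte markers, which define the labelled tissue, were abundant in every library, at 16100 FPKM or more in sum.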

How the data were processed

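The deposited table gives FPKM of known and assembled transcripts per library. The authors made these FPKM, per the submitters' processing notes and the methods, with CASAVA 1.8.2, Bowtie2 2.2.3, TopHat2 2.0.12 and Cufflinks 2.2.1 from paired-end reads of poly(A)-selected total RNA. The genome build is not given in the sources used here. The 4 columns of the authors' own comparisons were not used, nor were 3 of the 15 FPKM columns, which matched no sample. The column for ND mouse 4 was matched from its name with a differing prefix.

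Of 152210 transcript entries, 142496 were summed into 23104 genes by Ensembl transcript in GENCODE M21 (GRCm38), and 76916 of 78786 known transcripts matched. Summed gene FPKM were 437221 to 457090 per library, which is not a read depth. Differences of log2(FPKM + 1) were fitted with limma 3.58.1 (R 4.3.3) over 12802 genes and all 12 libraries, without covariates, and adjusted by Benjamini-Hochberg over all genes tested. FPKM hold no counts, so count models were not used. Tables and figures were made with Python 3.11.15, pandas 2.3.3, numpy 2.4.6 and matplotlib 3.10.9, and the fit was tested on simulated data. Correlations within groups were 0.978 to 0.991. Each library is from 1 mouse, so the p-values set a difference against the spread between mice. limma estimates that spread over all 4 groups and moderates it across genes. Whether the mice picked as representative show the spread of the larger groups was not tested.

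The cell cycle genes, pathway lists and marker lists were chosen with earlier results of these data known. Genes were named by rule: Mki67, Top2a and Pcna, the 2 members of highest mean in each role, members called with 1 supplement only or between CLE and LU, members that failed the filter or went against the main direction, the 3 highest genes of each pathway list and every tested CDK inhibitor. Other members are given with their role group, and other genes are said to be chosen after their values were seen. Alternatives covered the pseudocount, filters, scaling, weights, the letter R, transcript choice, the replicate block and leaving out each library.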

Additional observations from a re-analysis of the deposited data

How the results depend on the processing

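No called difference of a named gene changed direction under any alternative, and differences that were not called were not checked for this. Of 3471 values for the named genes, 3351 kept their side of the threshold, 78 lost a call and 42 gained one. The 3471 include CLE against LU and CLE against ND, where no call could be lost. They also include dropping the fold threshold, which can only add calls. The median difference ranged from 1.08 to 1.56 for HFD against ND, from -1.24 to -0.85 for CLE against HFD and from -1.0 to -0.68 for LU against HFD. With a filter on a mean of 5 FPKM only 8 of the genes were tested, and 6 rose in HFD, 6 fell in CLE and 5 fell in LU. Of all 9342 genes tested there, 1268 rose in HFD, 825 fell in CLE and 645 fell in LU. Leaving out 1 library at a time gave 31 to 33 genes that rose in HFD, 28 to 33 that fell in CLE and 18 to 27 that fell in LU. Over all 12802 tested genes these counts were 1836 to 1963, 1196 to 1426 and 837 to 1071. In all 12 such fits 31, 28 and 17 of the calls were kept. The 2 genes higher in LU than in ND became 4 with a pseudocount of 0.1 FPKM, 1 without a filter, with the filter on a mean of 5 FPKM or with the letter R as a covariate, and 0 with quantile normalization, array weights or the highest transcript only, and 0 to 6 when a library was left out. The causes were not tested. A replicate block on the mouse number was possible only among ND, CLE and LU because HFD shares no number. For LU against ND it called 0 of the 36 list genes higher, against 333 of all 12802 genes. It called none of the 36 in CLE against LU or CLE against ND, where 0 and 2 of all genes were called higher. Same-numbered mice correlated at -0.102 to 0.187 in their deviations from the group means. These values were not compared with those of other pairs, so whether the numbers pair mice was not tested. Summing by gene name and using protein-coding transcripts only were added after seeing the data. They gave 32 of 36 and 31 of 34 genes that rose in HFD, against 1844 of 12237 and 1856 of 12214 genes tested. By gene name 32 fell in CLE and 23 in LU, against 1267 and 948 of the 12237. With protein-coding transcripts only, 31 of 34 fell in CLE and 25 of 34 in LU, against 1287 and 951 of the 12214. The 3 mice per group, chosen as representative, and the unknown read depth limit these results.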
